A study of Homo sapiens with 7 samples.

Results

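Primary granules, also called azurophil granules, are the first granules a developing neutrophil makes. The 10 genes followed here encode proteins of these granules or markers of the cells that build them: MPO, ELANE, PRTN3, AZU1, CTSG, RNASE2, RNASE3, MS4A3, PRSS57 and CST7. They were chosen by gene symbol and are 10 of 11408 genes with a deposited FPKM, a read count scaled by gene length and library size. MOLM13 is a line of human acute myeloid leukemia cells, and its RNA was measured in 7 libraries, from cells kept in the same medium and taken 6 days after transduction with a guide RNA. Of these, 4 libraries carried a guide against ZFP36L2 and are labelled knockout, with 2 libraries for each of 2 guides, called guide 3 and guide 5 after the deposited tables. The other 3 libraries carried sgRosa, a non-targeting control guide. The sources used here do not say whether the replicates were separate cultures, whether the transduced cells were a pool or selected, or how completely the gene was edited, so p-values measure the spread between these libraries alone.

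The serine proteases of the granule, neutrophil elastase (ELANE), proteinase 3 (PRTN3) and cathepsin G (CTSG), cleave microbial and matrix proteins, and their inactive relative azurocidin (AZU1) binds bacterial lipopolysaccharide and heparin. Myeloperoxidase (MPO) makes hypochlorous acid from hydrogen peroxide and chloride. Transcription of these genes peaks in promyelocytes under factors such as C/EBP family members, PU.1, RUNX1 and MYB, and falls as cells mature into monocytes or neutrophils. RNASE2 and RNASE3 encode ribonucleases best known from eosinophil granules, CST7 the protease inhibitor cystatin F of endosomes and lysosomes, and MS4A3 a membrane protein that marks granulocyte-monocyte progenitors.

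Promoter sequences are shown for 2 pairs of neighbouring family members, AZU1 with PRTN3 and RNASE2 with RNASE3. The members of a pair are close relatives and can be compared base by base. ELANE, which also lies next to PRTN3, had no promoter entry in the table used here. Each covers 250 bases before and 50 bases after the start site in RefSeq, build GRCh38.p14, and is written 5′ to 3′ on the gene's strand. Capitals mark matches on either strand to TTGCNNAA, a C/EBP core, GAGGAAG, a PU.1 core, and CAACNG, a MYB core; CAACTG also matches the E-box letters CANNTG.
AZU1, chr19:827587-827886, plus strand: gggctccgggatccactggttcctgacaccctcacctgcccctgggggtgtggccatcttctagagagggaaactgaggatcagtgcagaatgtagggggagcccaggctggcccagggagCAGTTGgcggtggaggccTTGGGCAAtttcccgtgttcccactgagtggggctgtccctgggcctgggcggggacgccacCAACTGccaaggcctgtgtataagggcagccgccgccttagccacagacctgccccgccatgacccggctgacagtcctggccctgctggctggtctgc
PRTN3, chr19:840749-841048, plus strand: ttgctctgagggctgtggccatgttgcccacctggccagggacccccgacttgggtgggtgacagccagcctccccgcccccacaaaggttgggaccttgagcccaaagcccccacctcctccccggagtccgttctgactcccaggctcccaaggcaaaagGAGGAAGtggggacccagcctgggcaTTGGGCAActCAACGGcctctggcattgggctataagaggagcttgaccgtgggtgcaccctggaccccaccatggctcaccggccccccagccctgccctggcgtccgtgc
RNASE2, chr14:20955237-20955536, plus strand: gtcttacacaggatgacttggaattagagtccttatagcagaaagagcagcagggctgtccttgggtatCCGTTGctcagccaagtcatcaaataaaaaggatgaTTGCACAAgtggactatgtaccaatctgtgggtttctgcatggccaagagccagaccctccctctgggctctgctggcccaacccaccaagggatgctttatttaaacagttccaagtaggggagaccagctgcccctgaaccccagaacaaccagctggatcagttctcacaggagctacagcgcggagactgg
RNASE3, chr14:20891135-20891434, plus strand: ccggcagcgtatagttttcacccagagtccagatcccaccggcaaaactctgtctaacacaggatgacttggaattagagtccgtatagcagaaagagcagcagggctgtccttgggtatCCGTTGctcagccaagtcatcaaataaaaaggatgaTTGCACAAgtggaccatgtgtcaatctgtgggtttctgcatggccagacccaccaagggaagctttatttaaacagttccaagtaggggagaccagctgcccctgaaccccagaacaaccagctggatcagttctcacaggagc
AZU1 and PRTN3 both hold TTGGGCAA, a C/EBP match on the reverse strand, at 111 and 62 bases before the start site. The promoters of RNASE2 and RNASE3 share TTGCACAA and CCGTTG. From the start site these lie at -145 and -181 in RNASE2 and at -94 and -130 in RNASE3. Of the 300 bases of each promoter 249 were aligned, and 242 of these were identical (97.2%), a share that leaves out the unaligned bases. Of the 7 members with a RefSeq promoter in the table used here, 5 held the C/EBP letters, 2 the PU.1 letters and 6 the MYB letters. ELANE, MPO and CST7 had no entry and are left out of these counts. Among all 35116 promoters of this length the shares were 10.5%, 13.6% and 32.9%. These matches are a description of letters and not of bound sites.

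Because ZFP36L2 encodes an RNA-binding protein that recognizes AU-rich elements in 3′ UTRs, the members' annotated 3′ UTRs were searched for its letters. The heptamer TATTTAT occurred in 0 of 10, against 30.2% of tested genes with a 3′ UTR and 12.5% of those whose 3′ UTR is no shorter and no longer than the members', 81 to 1031 bases. The shorter ATTTA occurred in MPO and MS4A3 alone, 2 of the 3 members with the longest 3′ UTRs, against 69.4% of all tested genes and 46.6% of those in the same length range. Genes in that range had a median 3′ UTR of 481 bases, while the members other than MPO, AZU1 and MS4A3 had 81 to 216 bases. Length is thus not matched, and shorter 3′ UTRs have less room for these letters. The 4 places are shown as DNA with ATTTA in capitals and 10 bases on each side.
MPO, chromosome 17, 3′ UTR position 231 of 800: tgtatgtgccATTTAtgtgagtgtg
MPO, chromosome 17, 3′ UTR position 466 of 800: ctggttcttcATTTAttgagcacct
MPO, chromosome 17, 3′ UTR position 747 of 800: tttctgtaccATTTAtttgctccca
MS4A3, chromosome 11, 3′ UTR position 609 of 895: gtaaatgatgATTTAtgttggcgag

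Some facts of the whole series bear on every value below. Reads in the listed genes numbered 28088096 to 38807824 in the 4 guide libraries and 16907955 to 25164359 in the 3 sgRosa libraries. ZFP36L2, the targeted gene, was higher at the mRNA level in guide libraries, 269 and 322 FPKM with guide 3 and 174 and 164 FPKM with guide 5, against 80.2, 79.3 and 73.9 FPKM with sgRosa (log2 change 1.51 ± 0.16, limma, adjusted p = 8.2e-05, GC-corrected 1.26). Changes over all genes followed the GC content of the transcript. When tested genes were put in 10 classes of equal size by GC content, 56.1% of the top class were higher and 0% lower, and 2.95% of the bottom class were higher and 52.0% lower. The libraries themselves differed along this axis. With each gene centred over the libraries, the median log2 value of the top GC class minus that of the bottom class was taken. This difference was 0.52 and 0.95 with guide 3, 0.43 and -0.08 with guide 5, and -0.74, -1.09 and -0.01 with sgRosa. Members' transcripts range from 40.8% GC for MS4A3 to 67.7% for PRSS57, so GC-corrected values are given too, in which the trend of each library with GC content and length of the transcript was removed. Whether GC content contributed to the uncorrected changes was not tested.

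Levels between genes were compared as reads per kilobase of exon, scaled to library size, since the deposited FPKM use the length of the gene with its introns. PRTN3 was the most abundant member in every library, with a level of 2122 ± 564 (SD, n = 4) in guide libraries and 1598 ± 611 (SD, n = 3) in sgRosa libraries. It stood at place 5 of 11408 genes by mean level in both arms. In guide libraries ELANE followed at 629, then RNASE2 at 612, AZU1 at 356, CTSG at 209, PRSS57 at 193, CST7 at 50.1, RNASE3 at 37.6, MS4A3 at 37.2 and MPO at 14.4. In this order the ranges over libraries overlapped between neighbours except between PRTN3 and ELANE, RNASE2 and AZU1, PRSS57 and CST7, and MS4A3 and MPO. In sgRosa libraries the order was PRTN3, RNASE2 (530.0), CTSG (250.5), ELANE (221), AZU1 (188), PRSS57 (188), CST7 (77.2), RNASE3 (39.0), MS4A3 (25.2) and MPO (25.0). There the ranges did not overlap between PRTN3 and RNASE2, RNASE2 and CTSG, CST7 and RNASE3, and RNASE3 and MS4A3. ELANE stood at place 21 of all genes in guide libraries and 88 in sgRosa libraries, while MPO, the enzyme that gives the granule its peroxidase stain, stood at 3504 and 2119. The 10 genes together summed to 4523 and 6351 CPM, reads scaled to library size, with guide 3 and 4982 and 3665 CPM with guide 5, against 3142, 2732 and 5038 CPM with sgRosa. This sum overlapped between arms (exact two-sided permutation test, p = 0.23, n = 4 and n = 3, where the smallest possible p is 0.057). PRTN3 alone gave 49.7% of these reads in guide libraries and 50.3% in sgRosa libraries, and ELANE 12.9% and 6.33%.

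**Figure D1:**
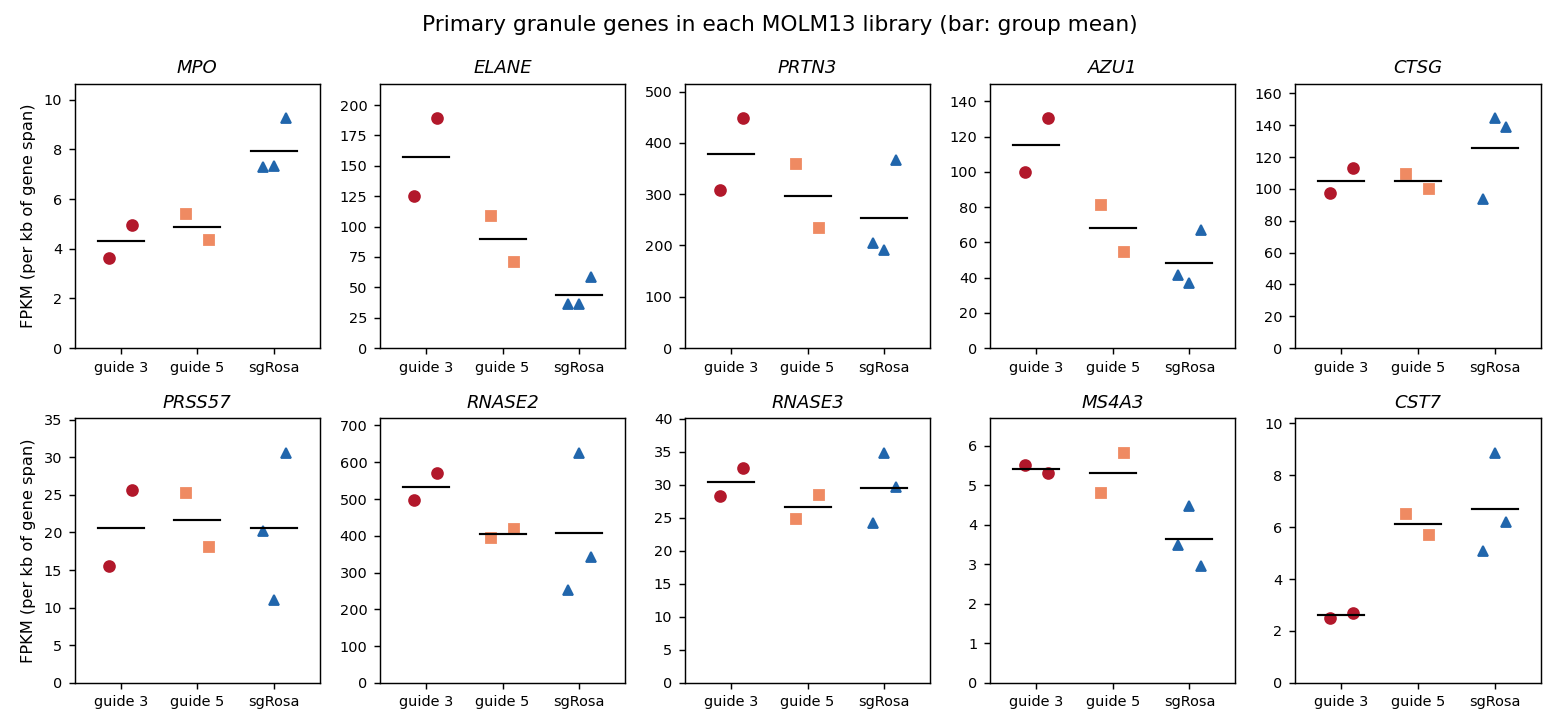
FPKM of the 10 genes in each of the 7 libraries, with guide 3, guide 5 and sgRosa from left to right; points are libraries, bars are group means, and each panel has its own axis from 0. ELANE and MS4A3 lay higher and MPO lower in all 4 guide libraries than in all 3 sgRosa libraries, while the other 7 genes overlapped between arms.

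All 10 genes passed the filter on low values, an FPKM of 1 reached in 2 or more libraries, and were tested among 6783 genes. With both guides together, 3 of the 10 were higher at adjusted p under 0.05 (ELANE, AZU1 and MS4A3), against 22.5% of all tested genes, and 2 were lower (MPO and CST7), against 19.7%. The other 5 did not pass. The median log2 change of the members was 0.21, beside -0.00499 over all tested genes, where a log2 change is the difference of log2(FPKM + 0.5). The arms did not overlap for ELANE and MS4A3, both higher in guide libraries, and for MPO, lower there. Over all tested genes the arms did not overlap for 21.0% with guide libraries higher and for 24.0% with guide libraries lower. After GC correction 2 members were higher (ELANE and MS4A3) and 4 lower (MPO, CST7, CTSG and PRSS57), against 18.1% and 25.3% of all tested genes. Over all tested genes 1526 were higher and 1339 lower, 1356 and 1930 after quantile normalization, and 1228 and 1716 after GC correction. In bulk RNA, fewer cells of a type and less RNA per cell cannot be told apart.

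Before GC correction ELANE rose more than any other member with both guides together (ENSG00000197561, chromosome 19, 851014 to 856247 in GRCh38). Neutrophil elastase mRNA was at 125 and 189 FPKM with guide 3 and 109 and 71.2 FPKM with guide 5, against 35.9, 36.3 and 58.4 FPKM with sgRosa. Each guide library lay above each sgRosa library, and both guide 3 libraries lay above both guide 5 libraries. The means were 124 ± 49.3 FPKM (SD, n = 4) in guide libraries and 43.5 ± 12.9 FPKM (SD, n = 3) in sgRosa libraries, a log2 change of 1.45 ± 0.25 (limma, adjusted p = 0.0017, 95% interval 0.90 to 1.997). With guide 3 the change was 1.85 ± 0.30 (adjusted p = 0.0013) and with guide 5 it was 1.05 ± 0.30 (adjusted p = 0.034). ELANE has log2 fold changes of 1.85 for guide 3 and 1.05 for guide 5 in the authors' deposited table. The transcript has 66.8% GC, more than 98.2% of tested genes, and after GC correction the change was smaller, 0.64 (adjusted p = 0.0092). That was below the corrected change of MS4A3, 0.83. Guide 3 alone then gave 0.77 (adjusted p = 0.011) and guide 5 alone 0.52 with adjusted p = 0.0502, just short of the threshold. The guide library and the sgRosa library nearest each other in GC balance, guide 5 replicate 2 and sgRosa replicate 3, had 71.2 and 58.4 FPKM of ELANE, a ratio of 1.22. Guide 5 ELANE also lost its call without guide 5 replicate 1 (0.74, adjusted p = 0.35) and without sgRosa replicate 1 (0.93, adjusted p = 0.10).

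AZU1, the azurocidin gene (ENSG00000172232, chromosome 19, 825097 to 832018), had 99.9 and 131 FPKM with guide 3 and 81.5 and 54.6 FPKM with guide 5, against 41.6, 36.8 and 66.9 FPKM with sgRosa. Both guide 3 libraries were above all sgRosa libraries, whereas guide 5 replicate 2 lay below sgRosa replicate 3. Its log2 change was 0.89 ± 0.24 with both guides (limma, adjusted p = 0.016), 1.28 ± 0.29 with guide 3 (adjusted p = 0.0079) and 0.51 ± 0.29 with guide 5 (adjusted p = 0.23). After GC correction the change with both guides was 0.24 (adjusted p = 0.18), with guide 3 0.43 (adjusted p = 0.069) and with guide 5 0.05 (adjusted p = 0.85), and none of the 3 passed. Its adjusted p with both guides was also above the threshold without sgRosa replicate 1 (0.065), without guide 3 replicate 2 (0.061) and without guide 5 replicate 1 (0.066). The call with guide 3 was lost without guide 3 replicate 2 (0.095). Of 1664 stretches of 50 bases in its exons, 83 also occur in exons of other genes, so a few of its reads could be shared.

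Proteinase 3, the autoantigen of granulomatosis with polyangiitis, is encoded by PRTN3 (ENSG00000196415, chromosome 19, 840960 to 848175) and had 308 and 448 FPKM with guide 3 and 358 and 235 FPKM with guide 5, against 205, 191 and 366 FPKM with sgRosa. The highest sgRosa library lay between the guide libraries, and the arms overlapped. The log2 change of 0.43 ± 0.28 did not pass the threshold (limma, adjusted p = 0.22, 95% interval -0.18 to 1.05), and after GC correction it was -0.36 (adjusted p = 0.075). Without sgRosa replicate 3, whose PRTN3 level was the highest of the controls, the change was 0.73 and passed (adjusted p = 0.039).

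AZU1, PRTN3 and ELANE lie next to each other and are close in GC content, and their proportions differed between arms. The ratio of ELANE to PRTN3, as reads per kilobase of exon, was 0.328 and 0.341 with guide 3 and 0.246 and 0.245 with guide 5, against 0.141, 0.154 and 0.129 with sgRosa. Every guide library was above every sgRosa library, with a mean log2 difference of 1.02, and the transcripts of these genes have nearly the same GC content (66.8% and 66.4%). ELANE to AZU1 gave 1.64 and 1.90 with guide 3 and 1.75 and 1.71 with guide 5, against 1.13, 1.29 and 1.14 with sgRosa. AZU1 to PRTN3 gave 0.200 and 0.180 with guide 3 and 0.140 and 0.143 with guide 5, against 0.125, 0.119 and 0.113 with sgRosa. The arms did not overlap in either ratio. Guide 3 and guide 5 libraries lay close together for ELANE to AZU1, and guide 3 libraries were the higher for the other 2 ratios. Of 9 pairs of members compared in this way, chosen after the values were seen, 6 did not overlap between arms: ELANE over AZU1, PRTN3, PRSS57, CTSG and MPO, and AZU1 over PRTN3. All but the last hold ELANE, whose own levels did not overlap between arms, so they are not separate results. The share over pairs of all tested genes was not computed. Single tested genes did not overlap for 21.0% with guide libraries higher and 24.0% with guide libraries lower. For each of these p = 0.057 by an exact two-sided permutation test (n = 4 and n = 3, adjusted p = 0.086 over the 9 pairs), the smallest p this design allows, so it cannot reach 0.05. Such ratios are free of library size and show unequal change, not which gene changed.

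**Figure D2:**
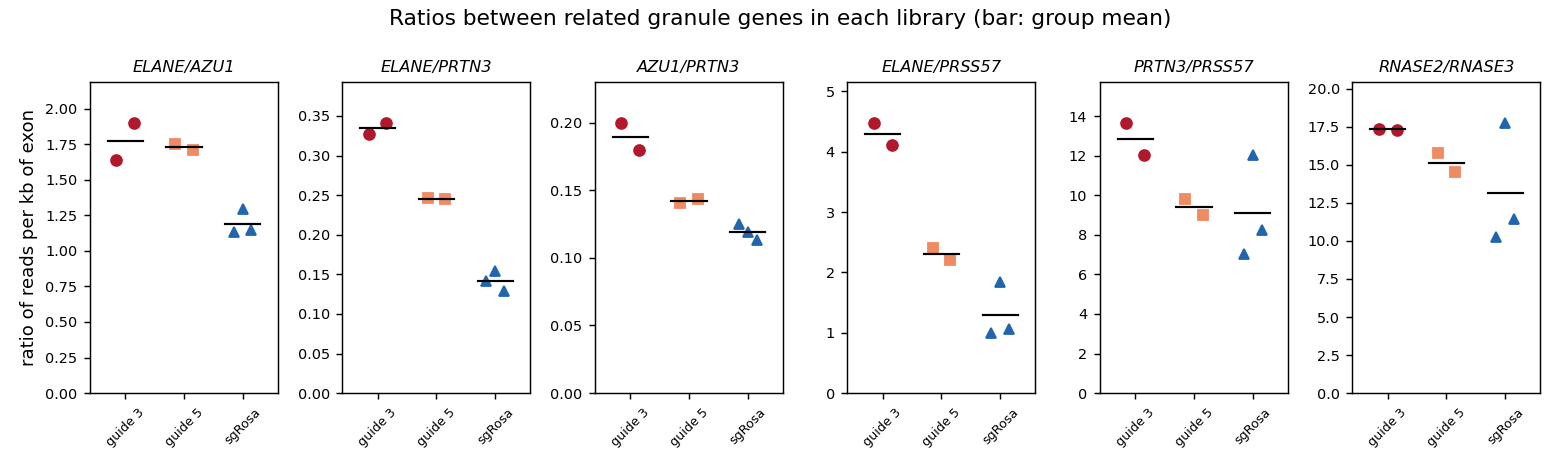
Ratios between pairs of granule genes, as reads per kilobase of exon, in each library for guide 3, guide 5 and sgRosa from left to right; points are libraries and bars are group means. ELANE/AZU1, ELANE/PRTN3, AZU1/PRTN3 and ELANE/PRSS57 do not overlap between guide and sgRosa libraries, while PRTN3/PRSS57 and RNASE2/RNASE3 do.

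PRSS57, neutrophil serine protease 4, cleaves after arginine (ENSG00000185198, chromosome 19, 685546 to 695498). It had 15.6 and 25.7 FPKM with guide 3 and 25.2 and 18.0 FPKM with guide 5, against 20.2, 10.96 and 30.6 FPKM with sgRosa. The sgRosa libraries alone spanned the whole range of the guide libraries. Its log2 change was 0.12 ± 0.32 (limma, adjusted p = 0.77, 95% interval -0.58 to 0.82), and with 67.7% GC it turned to -0.70 after GC correction (adjusted p = 0.013). The sign also turned without sgRosa replicate 2 (-0.26), the library with the least high-GC signal. A pseudogene, RPS2P52, overlaps the gene on the other strand, and whether reads were counted by strand is not given in the sources used here. CTSG, cathepsin G, lies on another chromosome (ENSG00000100448, chromosome 14, 24573522 to 24576260). It was at 97.4 and 113 FPKM with guide 3 and 109 and 100.2 FPKM with guide 5, against 93.7, 144 and 139 FPKM with sgRosa. The guide libraries fell within the range of the sgRosa libraries. The change of -0.23 ± 0.20 did not pass (limma, adjusted p = 0.35, 95% interval -0.67 to 0.20), while the GC-corrected one did (-0.71, adjusted p = 0.011).

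MPO, in contrast to ELANE, was lower in all 4 guide libraries (ENSG00000005381, chromosome 17, 58269856 to 58280935). It was at 3.63 and 4.96 FPKM with guide 3 and 5.39 and 4.34 FPKM with guide 5, against 7.28, 7.32 and 9.26 FPKM with sgRosa. The highest guide library was below the lowest sgRosa library. Means were 4.58 ± 0.767 FPKM (SD, n = 4) in guide libraries and 7.95 ± 1.13 FPKM (SD, n = 3) in sgRosa libraries, a log2 change of -0.74 ± 0.17 (limma, adjusted p = 0.0071, 95% interval -1.11 to -0.37). The change was -0.82 ± 0.20 with guide 3 (adjusted p = 0.010) and -0.65 ± 0.20 with guide 5 (adjusted p = 0.045), and -0.89 for guide 3 and -0.71 for guide 5 in the authors' deposited table. These values rest on 1318 to 2231 reads in guide libraries and 1495 to 2506 reads in sgRosa libraries. With 58.5% GC, MPO falls in a GC class in which 40.0% of tested genes were higher and 2.21% lower, and its GC-corrected change was larger at -1.19 (adjusted p = 1.9e-04), with -1.38 for guide 3 and -1.002 for guide 5. In the library pair nearest in GC balance it was at 4.34 FPKM with guide 5 and 9.26 FPKM with sgRosa. The call with both guides held in each of 17 alternative settings, and that of ELANE did too; the call for MPO with guide 5 alone was lost in 11 of 17. The ratio of ELANE to MPO joined both changes: 55.8 and 61.7 with guide 3 and 32.7 and 26.5 with guide 5, against 7.98, 8.03 and 10.2 with sgRosa.

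RNASE2, the eosinophil-derived neurotoxin (ENSG00000169385, chromosome 14, 20955452 to 20956436), is an abundant mRNA of this line. It had 496 and 569.6 FPKM with guide 3 and 395 and 417 FPKM with guide 5, against 251, 625 and 343 FPKM with sgRosa. sgRosa replicate 2 was the highest library of all and sgRosa replicate 1 the lowest, so the arms overlapped. The change of 0.30 ± 0.28 did not pass (limma, adjusted p = 0.41, 95% interval -0.33 to 0.93, GC-corrected 0.36). It rested on single controls: without sgRosa replicate 2 it was 0.66 and passed (adjusted p = 0.012), and without sgRosa replicate 1 it was 0.0045 (adjusted p = 0.99). RNASE3, eosinophil cationic protein (ENSG00000169397, chromosome 14, 20891399 to 20892348), had 28.3 and 32.5 FPKM with guide 3 and 24.8 and 28.4 FPKM with guide 5, against 24.2, 34.8 and 29.7 FPKM with sgRosa. Those guide libraries all lay within the range of the sgRosa libraries, and the change was -0.04 ± 0.17 (limma, adjusted p = 0.85, 95% interval -0.43 to 0.34, GC-corrected -0.05). The genes are close relatives: 23 of 706 stretches of 50 bases in RNASE2 exons and 36 of 671 in RNASE3 exons occur in the other gene or in a related sequence. A part of RNASE3 reads could therefore stem from RNASE2, whose level per kilobase of exon was 16.2 times that of RNASE3 in guide libraries and 13.2 times in sgRosa libraries. Of the eosinophil, basophil and mast cell markers, 2 of 15 were among the 11408 genes and 0 were tested, with a summed level of 7.20 to 11.1 CPM in guide libraries and 8.96 to 9.68 in sgRosa libraries.

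MS4A3 (ENSG00000149516, chromosome 11, 60056587 to 60071128) rose with both guides together. It had 5.51 and 5.31 FPKM with guide 3 and 4.81 and 5.82 FPKM with guide 5, against 3.48, 4.47 and 2.94 FPKM with sgRosa. The lowest guide library was above the highest sgRosa library. The log2 change was 0.52 ± 0.16 (limma, adjusted p = 0.029, 95% interval 0.15 to 0.88). Each guide alone gave nearly the same estimate, 0.53 ± 0.20 for guide 3 (adjusted p = 0.0514) and 0.50 ± 0.20 for guide 5 (adjusted p = 0.092), and neither passed. With 40.8% GC it is the member of lowest GC content, and its change grew to 0.83 after GC correction (adjusted p = 2.6e-04), where guide 3 gave 0.86 (adjusted p = 6.6e-04) and guide 5 0.81 (adjusted p = 0.0010). The call with both guides was lost when any 1 library other than sgRosa replicate 2 was left out, with adjusted p of 0.060 to 0.099.

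CST7 was the member in which the guides lay furthest apart (ENSG00000077984, chromosome 20, 24949230 to 24959928). Cystatin F inhibits cathepsins, among them cathepsin C, the protease that activates the granule serine proteases. It had 2.497 and 2.70 FPKM with guide 3 and 6.50 and 5.71 FPKM with guide 5, against 5.08, 8.86 and 6.19 FPKM with sgRosa. Both guide 3 libraries were below all other libraries, and both guide 5 libraries lay within the sgRosa range. The change was -1.18 ± 0.22 with guide 3 (limma, adjusted p = 0.0031, GC-corrected -1.84) and -0.10 ± 0.22 with guide 5 (adjusted p = 0.78, GC-corrected -0.38). Taken over both guides it was -0.64 ± 0.19 (adjusted p = 0.021, GC-corrected -1.11). Guide 5 minus guide 3 was 1.09 ± 0.24 (adjusted p = 0.097), which did not pass. It passed after GC correction (1.46, adjusted p = 0.0451), with quantile scaling (1.17, adjusted p = 0.030), with median of ratios scaling (adjusted p = 0.031), with voom on the recovered reads (adjusted p = 0.032) and without sgRosa replicate 2 (adjusted p = 0.0088). The call with both guides was lost without guide 3 replicate 1, guide 3 replicate 2 or guide 5 replicate 2, at adjusted p of 0.058 to 0.064.

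**Figure D3:**
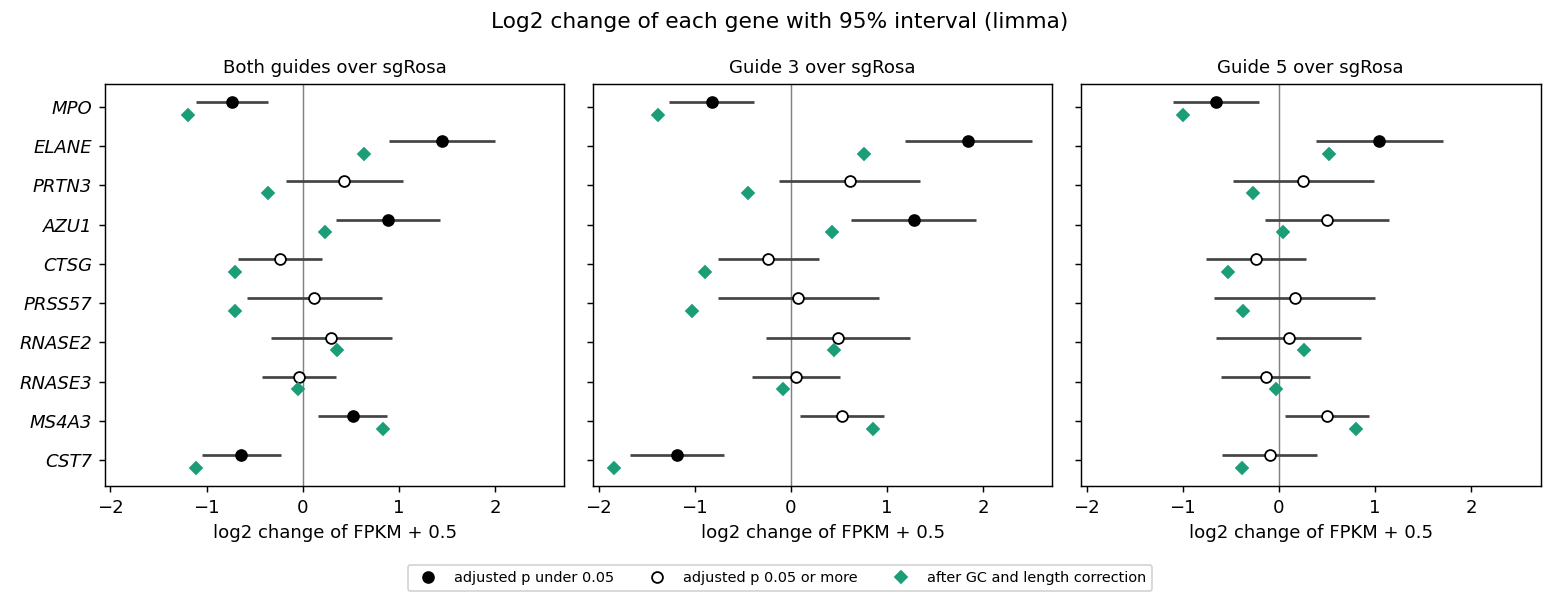
Log2 change of FPKM + 0.5 for each gene with both guides, guide 3 and guide 5 over sgRosa; circles with lines are estimates with 95% intervals from limma, filled where adjusted p is under 0.05, and green diamonds are the values after GC and length correction. ELANE is higher and MPO lower in all 3 panels, CST7 is lower with guide 3 (-1.18) and near 0 with guide 5 (-0.10). With both guides the correction moves ELANE (1.45 before and 0.64 after), AZU1, PRTN3, PRSS57, CTSG, MPO and CST7 down and MS4A3 up.

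By guide, the counts were smaller. With guide 3, 2 members were higher (ELANE and AZU1, against 23.5% of all tested genes) and 2 lower (MPO and CST7, against 17.2%). With guide 5, 1 was higher (ELANE, against 12.4%) and 1 lower (MPO, against 7.42%). After GC correction, guide 3 had 2 members higher (ELANE and MS4A3, against 16.3%) and 4 lower (MPO, CST7, CTSG and PRSS57, against 21.9%), and guide 5 had 1 higher (MS4A3, against 14.2%) and 1 lower (MPO, against 17%). These comparisons share the 3 sgRosa libraries. Guide 5 minus guide 3 gave 0 members past the threshold in either direction, against 0.457% of tested genes higher and 0.28% lower. After GC correction CST7 was higher, against 1.16% of tested genes, and 0 members were lower, against 0.31%. At an unadjusted p under 0.05 it gave 3 members, ELANE (-0.80 ± 0.32), AZU1 (-0.77 ± 0.32) and CST7, against 11.4% of all tested genes in either direction (2.9% higher and 8.51% lower), and voom on the recovered reads called 1, CST7. GC correction took the differences of ELANE and AZU1 to -0.25 and -0.38.

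Other genes of the granule were taken from lists, which were drawn up with earlier results of these data known, and the genes named from them are mainly those with the largest changes. The counts can be read against 22.5% higher and 19.7% lower over all tested genes, or 18.1% and 25.3% after GC correction. A gene under 1 FPKM in every sgRosa library passed the filter only where guide libraries were higher. For such genes the filter itself favours a higher call. Values in parentheses are the log2 change with both guides and then the GC-corrected one. Among other proteins of the azurophil granule and its matrix, 11 of 16 tested were higher and 1 lower, and the same numbers came out after GC correction with partly different genes. The median of their log2 changes was 0.75, or 0.56 when GC-corrected, beside -0.00499 over all tested genes. They included the lysosomal protease cathepsin D, CTSD (2.33 and 1.66), at 44.8 ± 13.5 FPKM (SD, n = 4) in guide libraries and 8.38 ± 2.04 FPKM (SD, n = 3) in sgRosa libraries, the sphingolipid activator PSAP (2.27 and 1.99), the glycogen-cleaving enzyme GAA (1.73 and 1.08) and lysozyme, LYZ (1.37 and 1.66). The lower one was CTSC, cathepsin C, which trims the granule serine proteases to their active forms: it was at 5.13 ± 0.187 FPKM (SD, n = 4) in guide libraries and 8.05 ± 1.00 FPKM (SD, n = 3) in sgRosa libraries (-0.60 ± 0.14, limma, adjusted p = 0.0092), and did not pass after GC correction (-0.19, adjusted p = 0.12).

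Of genes that activate or inhibit granule proteases, 4 of 9 were higher and 1, again CTSC, lower, and 7 and 0 after GC correction. The higher ones were the inhibitors SERPINA1 (2.22 and 1.98), CST3 (1.82 and 1.996) and CSTB (1.06 and 0.89) and the aminopeptidase CTSH (1.02 and 0.80). SERPINA1 was under 1 FPKM in every sgRosa library and passed the filter through guide libraries alone. Cystatins and papain-type cathepsins other than CST7 were higher in 7 of 9 cases and lower in 1, CTSC (8 and 0 after GC correction). CTSB (1.97 and 1.80) and CTSL (1.83 and 1.67) were among the higher. CST3, CSTA, CSTB, CTSC and CTSH belong to this list and to the one before it, so the counts overlap. Of 17 listed genes of the later specific and gelatinase granules, 12 were not analysed here, LTF, LCN2 and CAMP among them. The 5 tested were all higher, and 4 after GC correction, among them the gelatinase MMP9 (2.29 and 1.68) and the oxidase subunit CYBB (2.19 and 2.54). MMP9 and HP were under 1 FPKM in every sgRosa library and passed the filter through guide libraries alone. These counts therefore do not describe the listed granule genes as a whole. Of granule sorting and lysosomal trafficking genes 5 of 14 were higher and 0 lower (6 and 1 after GC correction), for example STXBP2 (1.26 and 0.71) and UNC13D (0.95 and 0.34), which serve granule release.

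Transcription factors known to act on granule genes went both ways. Of 13 tested, 5 were higher and 1 lower, or 4 and 3 after GC correction, and the median was 0.05 (GC-corrected 0.13). CEBPB, the C/EBP factor of monocytic and emergency myelopoiesis, was at 21.8 ± 2.99 FPKM (SD, n = 4) in guide libraries and 3.61 ± 1.78 FPKM (SD, n = 3) in sgRosa libraries, a log2 change of 2.52 ± 0.25 (limma, adjusted p = 4.4e-05, GC-corrected 1.78). CEBPD (1.62), the granulocytic factor CEBPE (1.25) and SPI1, which encodes PU.1 (1.11), were also higher, with GC-corrected values of 0.79, 0.60 and 0.38, of which that of SPI1 did not pass (adjusted p = 0.072). MYB, a factor of progenitors, was lower at 12.4 ± 2.17 FPKM (SD, n = 4) in guide libraries and 20.3 ± 6.77 FPKM (SD, n = 3) in sgRosa libraries (-0.66 ± 0.20, adjusted p = 0.027, GC-corrected -0.40), a call that was lost in 3 of the 7 settings that leave out a library.

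Markers of other cells were read in the same way, with the log2 change and the GC-corrected one in parentheses. Of 14 tested monocyte and macrophage markers, 13 were higher and 0 lower (14 and 0 after GC correction), with a median log2 change of 1.76, 1.57 after correction, and a summed level of 10871 to 21648 CPM in guide libraries and 4387 to 7316 in sgRosa libraries. CD163 and MRC1, which mark tissue macrophages, were not analysed here. Some of the 14, such as FCN1 and S100A12, were under 1 FPKM in every sgRosa library and passed the filter through guide libraries alone. Of 5 tested stem and progenitor genes, 2 were lower, MYB and FLT3 (-0.71 and -0.42), against 19.7% of all tested genes, and 1 was higher, CD38 (0.48 and 0.80), against 22.5%; after GC correction 3 were lower and 1 higher. Of 17 erythroid, megakaryocyte and lymphoid markers 2 were tested, CD3D, which was lower (-0.96 and -1.17), and NKG7, a protein of cytotoxic granules, which was higher (1.56 and 1.02); their summed level was 78.4 to 104 CPM in guide libraries and 38.0 to 52.1 in sgRosa libraries. The part of these markers in the changes of the granule genes was not tested. Of 3 tested genes of a list of RNase A family members and their inhibitor, 2 were higher: RNASE1 (2.26 and 2.10) and the inhibitor RNH1 (1.12 and 0.48), which did not pass after GC correction (adjusted p = 0.16). Of 4 tested MS4A family genes and relatives TMEM176A (1.43 and 0.77) and TMEM176B (1.43 and 0.94) were higher, and 0 of 8 granzyme, chymase and related genes could be tested. RNASE1, TMEM176A and TMEM176B likewise were under 1 FPKM in every sgRosa library.

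**Figure D4:**
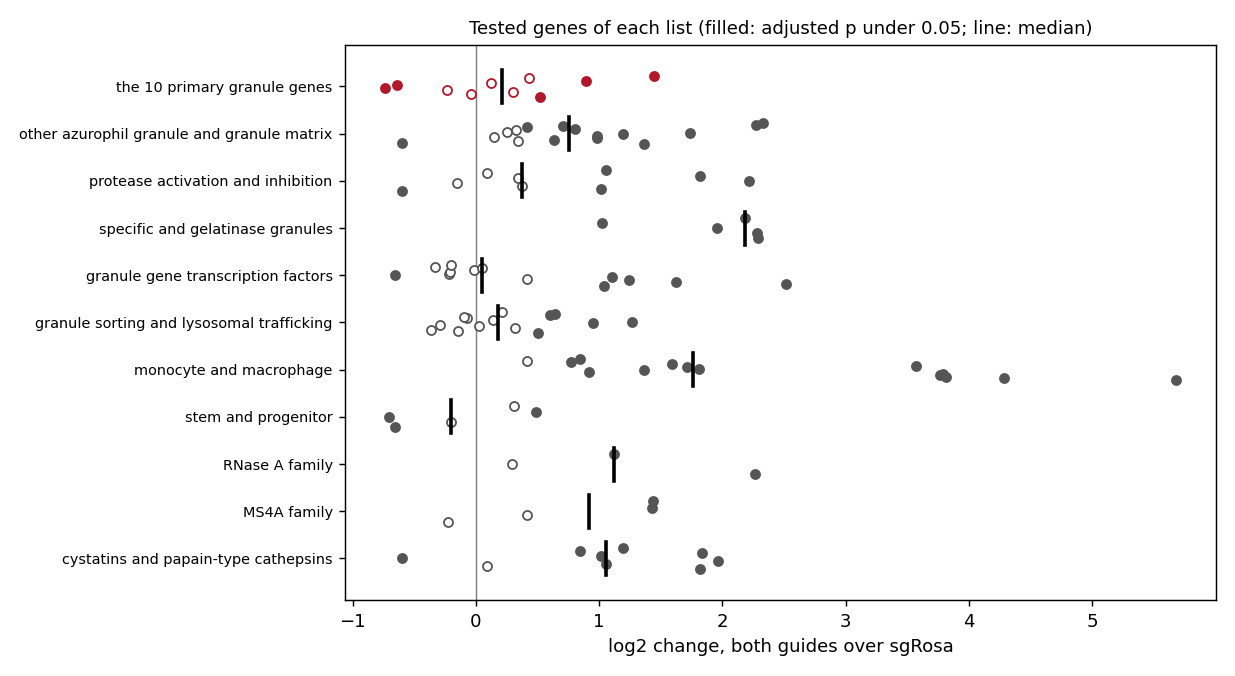
Log2 change with both guides over sgRosa for every tested gene of each list with at least 3 tested members, with the 10 primary granule genes in red at the top; filled points have adjusted p under 0.05, open points do not, and black lines are medians. The granule genes lie on both sides of 0, from -0.74 to 1.45, around a median of 0.21, while 13 of 14 monocyte markers lie to the right and pass.

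ELANE, PRTN3 and AZU1 lie within a few kilobases on chromosome 19. The gap between AZU1 and PRTN3 is 8941 bases and that between PRTN3 and ELANE 2838 bases, and PRSS57 lies 129598 bases before AZU1. Of 14 other tested genes within 200 kb of the 3 genes, PRSS57 among them, 9 were higher with both guides and 0 lower, against 22.5% and 19.7% of all tested genes. Their median GC content was 65.0%, and after GC correction 4 were higher (CFD, ARID3A, TMEM259 and ABCA7) and 4 lower (POLRMT, PRSS57, PTBP1 and LPPR3), against 18.1% and 25.3%. The median log2 change of the 14 was 0.65 before the correction and 0.05 after it. CFD, which encodes complement factor D and lies next to ELANE, had the largest change, 1.70 ± 0.30 (limma, adjusted p = 0.0019, GC-corrected 0.96). ABCA7, a lipid transporter at the far end, was higher by 1.19 (GC-corrected 0.53) and TMEM259 by 1.01 (GC-corrected 0.29). PTBP1, the splicing regulator between PRSS57 and AZU1, had -0.02, and was lower after GC correction (-0.50, adjusted p = 0.0088). Near RNASE2 and RNASE3, which are 63103 bases apart, 3 of 7 tested genes were higher and 0 lower, against the same 22.5% and 19.7%: RNASE1 (2.26, GC-corrected 2.10), NDRG2 (0.85, GC-corrected 0.53) and ARHGEF40 (0.46, GC-corrected -0.05). After GC correction ARHGEF40 did not pass (adjusted p = 0.53), RNASE6 was higher (0.49, adjusted p = 0.012) and RP11-84C10.2 lower (-0.69, adjusted p = 0.037). Near CTSG 0 of 2 passed in either direction, with or without the correction.

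**Figure D5:**
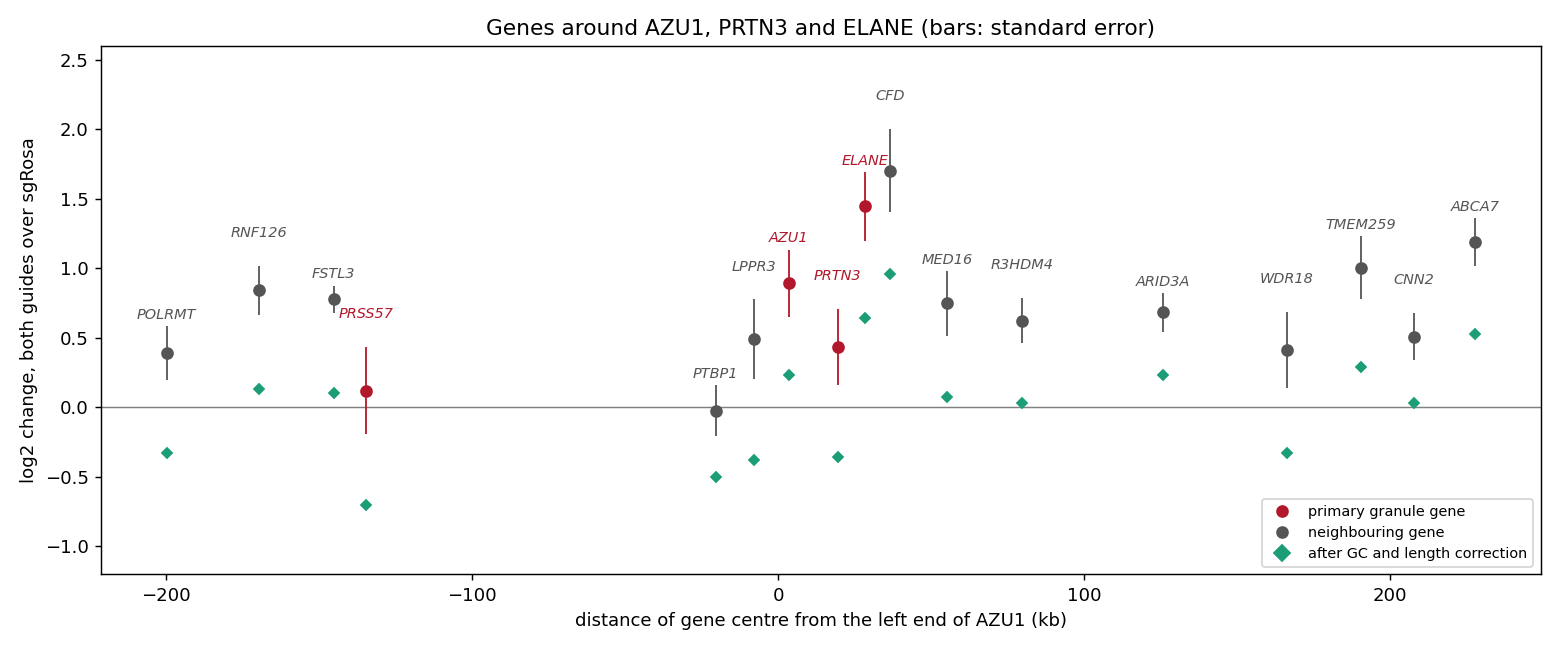
Log2 change with both guides over sgRosa against the distance of each gene's centre from the left end of AZU1 in kilobases, for the primary granule genes in red and other tested genes within 200 kb in grey; bars are standard errors and green diamonds GC-corrected values. CFD (1.70) and ELANE (1.45) stand highest, PRSS57 and PTBP1 are near 0 before correction, and every diamond lies below its circle.

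The profiles nearest to ELANE over the 7 libraries, by Euclidean distance of centred log2(FPKM + 0.5), were those of TCIRG1 (0.279), PRR24 (0.356) and ICAM4 (0.363), against a median distance of 2.27 to all tested genes. Those nearest to MPO were DDN (0.339), RP11-735A19.4 (0.384) and CHST4 (0.389), against a median of 1.22. No other member was among either set.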

How the data were processed

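Poly(A)-selected RNA was sequenced as directional single-end libraries, per the labels' protocols, and STAR 2.5.3, HTSeq, edgeR and limma are named with GRCh38.p7 and hg38, without roles, in the submitters' processing notes. The authors deposited FPKM per library, and in another table a log2 fold change over control for each guide, p-values with false discovery rates, a score (the test statistic), and group mean CPM, a signal scaled to library size. Mean CPM over mean FPKM of the sgRosa libraries gave a whole gene length (within 0.01 bases) for 11398 of 11408 genes with FPKM, equal to the GENCODE 29 gene end minus its start for 8057, so FPKM are per kilobase with introns; the other 10, at 0 in sgRosa, took the GENCODE length, and 2 columns of guide means were not used; 173 of 11581 identifiers without FPKM were left out. FPKM times this length gave whole reads for 99.97% or more of the values in each library, and 1 read stood for 0.0261 to 0.0540 CPM. Depth limits cover counting error alone.

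The 6783 genes that reached an FPKM of 1 in 2 or more libraries were fitted as log2(FPKM + 0.5) in R 4.3.3 by limma 3.58.1, with a variance trend (residual degrees of freedom 4, prior 6.21), a mean per group, two-sided tests and Benjamini-Hochberg adjustment over all tested genes, threshold 0.05. The pseudocount of 0.5 understates changes of low genes. The labels number the guides otherwise than the deposited columns, and nothing pairs the names. GC correction subtracted from each library a spline fit (5 degrees of freedom) on transcript GC content and length. On simulated data with 6533 genes, 100% of 98 genes changed 2-fold and of 95 changed 4-fold were called, and 11 of 204 calls were false. The median log2 estimates were 0.81 and 1.74, below the true changes. The simulated counts had a fixed spread and no GC trend between libraries, and only well-covered genes were changed. These rates therefore need not hold for the real libraries. Python 3.11.15, scipy 1.17.1 and matplotlib 3.10.9 were also used.

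The members, the 13 gene lists and the tests were chosen with earlier results of these data known. Named genes are the 10 members, ZFP36L2, up to 4 called genes of each list with the largest change (some left out of the text), tested genes within 200 kb of AZU1, PRTN3 and ELANE, of RNASE2 and RNASE3 or of CTSG, and the 3 profiles nearest to ELANE and to MPO. CTSC and S100A9 were named after their values were seen, as were the pairs for ratios.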

Additional observations from a re-analysis of the deposited data

Results flagged for a closer look

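Of the tested list genes, 5 differed between the guides by the test of the difference itself (guide 5 minus guide 3, limma, adjusted over all tested genes), all lower with guide 5. The ribonuclease RNASE1, a neighbour of RNASE2, was at 1.97 and 1.64 FPKM with guide 5, against 6.86 and 4.96 FPKM with guide 3, a log2 difference of -1.46 (adjusted p = 0.013). FCN1, a lectin of monocytes, had 6.31 and 5.96 FPKM with guide 5 and 21.1 and 17.1 FPKM with guide 3 (-1.56, adjusted p = 0.0021). S100A8, a calcium-binding protein of monocytes and neutrophils, had 54.4 and 48.8 FPKM with guide 5 and 229 and 167 FPKM with guide 3 (-1.91, adjusted p = 0.0018). S100A9, its partner, had 37.1 and 29.8 FPKM with guide 5 and 172 and 133 FPKM with guide 3 (-2.17, adjusted p = 0.0018). S100A12, of the same family, had 3.67 and 2.54 FPKM with guide 5 and 17.7 and 12.1 FPKM with guide 3 (-2.09, adjusted p = 0.0016). After GC correction the 5 differences were -1.26 (RNASE1), -1.57 (FCN1), -1.59 (S100A8), -1.77 (S100A9) and -1.85 (S100A12), with adjusted p of 0.0052 to 0.025. Other list genes passed only after the correction: VCAN (-0.73, limma, adjusted p = 0.025) and CEBPE (-0.70, adjusted p = 0.048) were lower with guide 5. GFI1 was higher with guide 5 (0.68, adjusted p = 0.045). Among the 10 granule genes the uncorrected difference reached adjusted p under 0.05 in none.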

How the results depend on the processing

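MPO and ELANE kept their calls with both guides together in all 17 alternatives, with log2 changes of -1.19 to -0.63 and 0.64 to 1.68. CST7 lost its call in 3, AZU1 in 4 and MS4A3 in 7 of 16, since MS4A3 was not tested at a mean FPKM of at least 5. That filter tests fewer genes and called 557 higher and 342 lower with both guides (1526 and 1339 in the main setting), 598 and 282 with guide 3 (1593 and 1166), 283 and 158 with guide 5 (841 and 503), and 5 and 4 for guide 5 minus guide 3 (31 and 19); with guide 5, 0 members were then lower. With no filter, guide 5 had 0 members higher and 0 lower, and guide 5 minus guide 3 had 49 genes higher and 48 lower. With a pseudocount of 0.1, 11 genes were lower for guide 5 minus guide 3.

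Among the scalings, GC correction gave 4 members lower, against 2, both with both guides and with guide 3, and 1154 genes lower with guide 5. It turned PRSS57 and PRTN3 to -0.70 and -0.36 with both guides, -1.03 and -0.45 with guide 3, and -0.38 and -0.27 with guide 5, and RNASE3 to -0.076 with guide 3. For guide 5 minus guide 3 it gave 79 genes and 1 member higher and turned RNASE3 to 0.049, CTSG to 0.37 and PRTN3 to 0.18. Quantile scaling gave 1825 genes lower with guide 3 and 1031 with guide 5. It turned PRSS57 to -0.047 with both guides and -0.20 with guide 3, and RNASE3 to -0.24 with guide 3. For guide 5 minus guide 3 it gave 55 genes higher, 37 lower and 1 member higher, with MS4A3 at 0.10, RNASE3 at 0.014, CTSG at 0.29 and PRTN3 at 0.021. Median of ratios and voom on recovered reads each gave 2 members higher and 0 lower with guide 5 and 1 member higher for guide 5 minus guide 3. The difference between guides turned for MS4A3 (0.051) and CTSG (0.081) with median of ratios and for CTSG (0.028) with voom, which had 9 genes lower for it and RNASE3 at 0.015 with both guides. The cause of these shifts was not tested.

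Deviations of same-numbered libraries from their group means correlated at 0.09, -0.13, -0.40, 0.44, -0.57 and -0.57. With 2 libraries per guide the deviations within a guide mirror each other, so these values are not separate checks. They cannot decide whether the replicate numbers pair the libraries. With the replicate number as a block, guide 5 gave 1056 genes lower and 2 members higher and 0 lower, and guide 5 minus guide 3 gave 73 genes higher, 123 lower and 1 member higher. With both guides the block ended the call of MS4A3 (0.40, adjusted p = 0.12) and gave one for PRTN3 (0.73, adjusted p = 0.027), as it did with guide 3 (0.91, adjusted p = 0.017). With guide 5 it ended that of MPO (-0.55, adjusted p = 0.081) and gave one for AZU1 (0.76, adjusted p = 0.034), and for guide 5 minus guide 3 one for CST7 (1.09, adjusted p = 0.0016), all by limma. No other call on a member changed under the block, and ELANE was at 1.68 with both guides.

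Leaving out each library in turn gave 966 to 1839 genes higher and 559 to 1701 lower with both guides, 606 to 1979 and 112 to 1574 with guide 3, 325 to 1236 and 28 to 998 with guide 5, and 4 to 88 and 2 to 128 for guide 5 minus guide 3. Members were higher in 1 to 4 cases and lower in 1 to 2 with both guides, 1 to 4 and 1 to 2 with guide 3, 0 to 2 and 0 to 1 with guide 5, and 0 to 1 and 0 to 0 for guide 5 minus guide 3. A sole library left in a guide group was taken to vary like the other groups. The sign turned for members that had not passed: PRSS57 ran over -0.26 to 0.46 with both guides, -0.31 to 0.43 with guide 3, -0.22 to 0.50 with guide 5 and -0.26 to 0.44 for guide 5 minus guide 3. RNASE3 ran over -0.18 to 0.082 with both guides and -0.082 to 0.18 with guide 3. With guide 5, PRTN3 ran over -0.050 to 0.56, RNASE2 over -0.19 to 0.47 and CST7 over -0.26 to 0.11. For guide 5 minus guide 3, CTSG ran over -0.11 to 0.10, MPO over -0.032 to 0.37 and MS4A3 over -0.15 to 0.10. With 2 libraries per guide and 3 controls, differences between guides in single members are weakly determined.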
